A study of Homo sapiens with 14 samples.

Results

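The genes described here encode the extracellular matrix and the enzymes that build and trim it, in HEK 293 cells, an established human embryonic kidney line. They are 39 genes given by symbol: collagens, laminins, nidogens and heparan sulphate proteoglycans of the basement membrane, fibronectin, fibrillins and versican, matricellular proteins, crosslinking enzymes, proteases and protease inhibitors. The rule takes the genes by name and uses no measured value, but the list was chosen with earlier results of these data known. Shares of these genes set beside those of all tested genes are therefore descriptions. Of the 39 genes, 38 had an identifier among the 18006 genes of the count table, 31 had a mean above 1 CPM (read counts scaled for library size) over 14 libraries, and 32 were among the 12080 genes with enough reads to be tested.

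The libraries came from 5 groups: control cells with a wild-type label (n = 3), CFIm25 knockdown (n = 2), CFIm68 knockdown (n = 3), CFIm25 overexpression (n = 3) and CFIm68 overexpression (n = 3). Knockdown used small interfering RNA. The sources used here do not say whether controls were mock-treated, which vector drove overexpression, or whether the overexpressing cells were clones. Nothing states that replicates were separate cultures, so p-values measure the spread between libraries, which may be technical. CFIm25 (gene NUDT21) and CFIm68 (gene CPSF6) are subunits of cleavage factor I, which binds UGUA motifs in pre-mRNA upstream of polyadenylation sites and favours distal sites. The comparisons ask how the RNA level of each matrix gene differed when either subunit was lowered or raised.

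The extracellular matrix is the protein scaffold that cells secrete. Epithelial cells such as those of the kidney rest on a basement membrane, a sheet in which laminin trimers and type IV collagen form networks that nidogens and the proteoglycans perlecan and agrin join. Fibrillar collagens give tensile strength to the tissue below it. Lysyl oxidases crosslink collagens, metalloproteinases cut matrix proteins, and tissue inhibitors of metalloproteinases (TIMPs) hold those enzymes in check.

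The targeted genes moved as the labels say. NUDT21 stood at 537, 500 and 505 CPM in control, at 54.6 and 52.9 CPM in CFIm25 knockdown, and at 671 to 782 CPM in CFIm25 overexpression. CPSF6 stood at 274, 262 and 268 CPM in control, at 40.5 to 42.5 CPM in CFIm68 knockdown, and at 717 to 750 CPM in CFIm68 overexpression. The other subunit's gene moved too: CPSF6 was 526 and 540 CPM in CFIm25 knockdown (edgeR adjusted p = 1.7e-14), and NUDT21 was 224 to 242 CPM in CFIm68 knockdown (1.9e-15). In CFIm68 overexpression NUDT21 was 550 to 645 CPM, a log2 change of 0.22 (0.0049). CPSF6 did not pass in CFIm25 overexpression (0.119). The targeted gene itself rose 1.42-fold in CFIm25 overexpression and 2.72-fold in CFIm68 overexpression. Total counts per library ran from 15822467 to 33895308. Of 6 epithelial markers 5 were tested, with a summed level of 1109 to 1387 CPM per library, whereas the endothelial markers summed to at most 0.835 CPM and the blood markers to at most 2.07 CPM. The epithelial sum was 1242 to 1334 CPM in control, 1264 to 1278 in CFIm25 knockdown and 1357 to 1387 in CFIm68 knockdown. It was 1109 to 1201 in CFIm25 overexpression and 1196 to 1285 in CFIm68 overexpression. With CFIm25 overexpression 1 tested epithelial marker rose and 4 fell (100% called, beside 56.7% of all tested genes). Of 9 kidney tubule and podocyte markers in the table only LRP2 and CUBN were tested (sums of 151 to 199 CPM), and SLC34A1 and AQP2 were listed at 0. Of 10 fibroblast and mural markers 6 were tested, and DCN, PDGFRA and FAP were listed at 0. Their sum, mostly VIM, was 718 to 786 CPM in control, 503 to 518 in CFIm25 knockdown, 649 to 681 in CFIm68 knockdown, 848 to 951 in CFIm25 overexpression and 702 to 733 in CFIm68 overexpression. Some of its other members, named after their values were seen, moved more and in both directions: ACTA2 fell by 1.73 and 1.01 on the log2 scale in the CFIm25 and CFIm68 knockdowns and rose by 0.55 in CFIm68 overexpression, and TAGLN rose by 0.90 in CFIm68 knockdown. LUM, itself a matrix gene, was 1.94 to 3.06 CPM in control and at most 0.226 CPM in CFIm25 overexpression and 0.167 CPM in CFIm68 overexpression. The part of the marker lists in the matrix values was not tested. In bulk RNA, fewer cells of a type and less RNA per cell cannot be told apart.

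Every perturbation changed matrix genes in both directions. Of the 32 tested genes, 30 passed an adjusted p of 0.05 by edgeR's quasi-likelihood test in at least 1 of the 4 comparisons with control, and COL4A6 and LAMB1 passed in none. These 30 genes gave 72 called changes, of which 14 were at least 2-fold. The matching shares of all tested genes were not computed for these counts. In each comparison with control 29.8% to 56.7% of all tested genes were called, so passing in at least 1 is not particular to matrix genes. In CFIm25 knockdown 8 rose and 10 fell (all tested genes: 24.4% rose and 23.2% fell), and the median log2 change of the 32 was -0.10 against 0.01 for all tested genes. In CFIm68 knockdown 12 rose and 9 fell (all tested genes: 28.3% and 28.1%), with a median of 0.02. The share of matrix genes called was 56.2% in the first and 65.6% in the second, beside 47.6% and 56.4% of all tested genes.

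Overexpression of the 2 subunits differed in balance. In CFIm25 overexpression 4 of the 32 rose and 14 fell (all tested genes: 27.7% rose and 29.1% fell), with a median log2 change of -0.17. In CFIm68 overexpression 10 rose and 5 fell (all tested genes: 14.5% and 15.4%), with a median of 0.05. Set directly against each other, CFIm68 overexpression was higher than CFIm25 overexpression for 18 of the 32 and lower for 6 (all tested genes: 32.9% higher and 30.8% lower), with a median log2 difference of 0.31 against 0.01 for all tested genes. CFIm68 knockdown was higher than CFIm25 knockdown for 8 and lower for 2 (all tested genes: 11.1% and 13.2%). The 4 comparisons with control use the same 3 control libraries, so their values are set side by side here and not counted as independent.

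**Figure D1:**
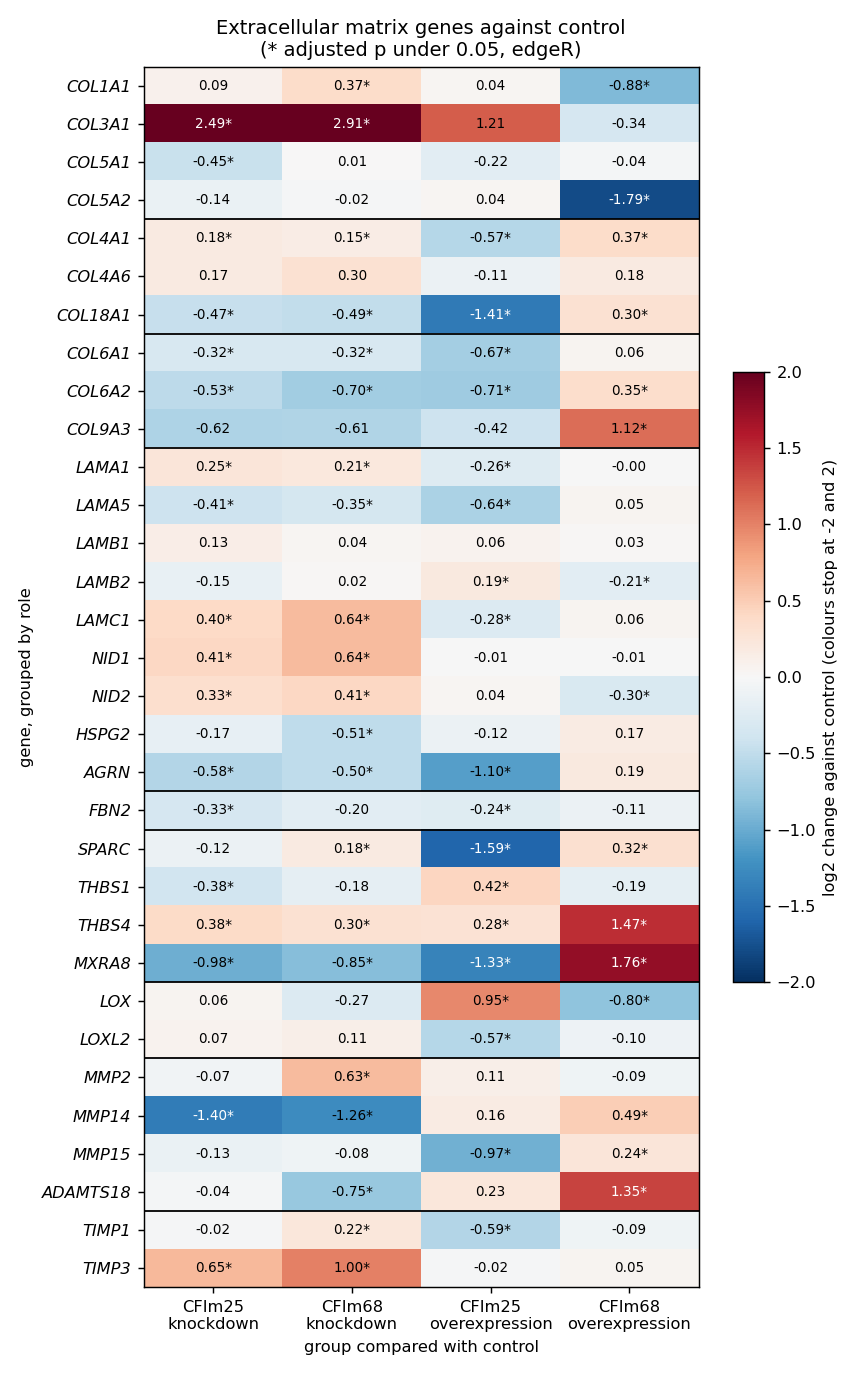
Log2 change against control of the 32 tested matrix genes, 1 row per gene ordered by role and 1 column per perturbed group; red is higher, blue is lower, and a star marks an edgeR adjusted p under 0.05. COL5A2 passed as lower only where CFIm68 was overexpressed (-1.79), SPARC was lowest with CFIm25 overexpression (-1.59), and MXRA8 and THBS4 were highest with CFIm68 overexpression (1.76 and 1.47).

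Per length, some laminin genes, both nidogen genes and SPARC were the highest of the listed genes with reads. Lengths count the merged exons of all annotated transcripts of a gene, which can exceed the length of the transcript used. In control, in TPM (counts per kilobase of exon, scaled to the same sum in every library), NID1 was highest at 420 ± 15.8 (SD, n = 3), followed by LAMC1 at 339 ± 20.3, SPARC at 198 ± 11.3, LAMB2 at 150 ± 7.62, LAMB1 at 123 ± 11, NID2 at 116 ± 7.70 and TIMP1 at 113 ± 8.09. LAMB1, NID2 and TIMP1 did not differ from each other beyond their spread. LAMA1 was lower at 58.9 ± 5.33 TPM, and LAMA5 at 31.4 ± 2.37 lay below COL18A1 at 49.8 ± 5.33. The fibrillar and network collagens also lay below the genes listed first: COL5A2 at 28.3 ± 1.15 TPM, COL4A1 at 23.3 ± 2.12 and COL1A1 at 21.7 ± 1.32. COL4A6 at 1.01 ± 0.11 TPM and COL9A3 at 0.95 ± 0.11 were the lowest of those above 1 CPM. COL1A2, COL4A5, FN1, FBN1 and VCAN were listed at 0 in all 14 libraries. HSPA8, a chaperone gene that every cell uses, was also listed at 0, so these entries say nothing about whether the genes are expressed. COL11A1 had 6 reads over all libraries, and COL4A2 was not analysed here.

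**Figure D2:**
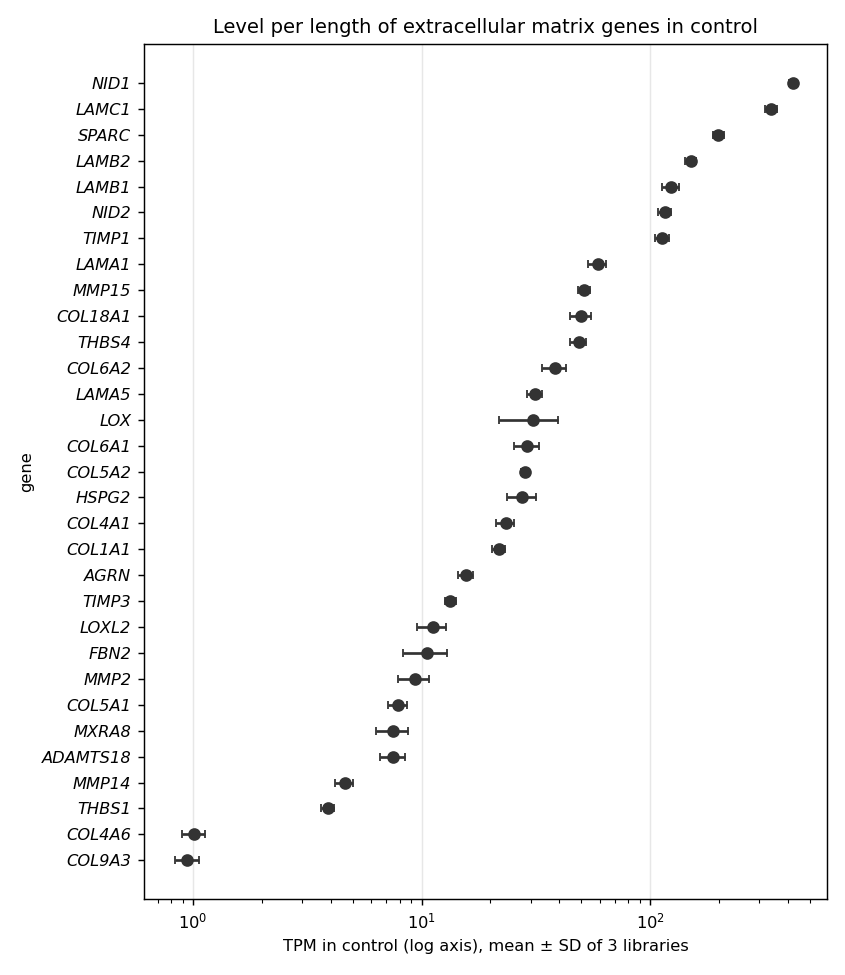
Level per length of the matrix genes above 1 CPM in control, as mean ± SD of TPM in 3 libraries on a log axis. NID1 (420) and LAMC1 (339) stand above SPARC (198), and COL9A3 (0.95) is at the bottom.

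Because cleavage factor I binds UGUA (TGTA in DNA letters), the last 100 bases of each gene's annotated transcript were searched for it on the sense strand. The sequences below are from GENCODE 29 transcripts on hg38, 5′ to 3′ along the transcript, for 8 of the genes described in the paragraphs that follow, chosen after their values were seen. Capitals mark the TGTA that each line stands for, and the positions are those of the printed bases in the terminal exon.
NID1 (chr1:235975891-235975920, minus strand): gttctcccagattTGTAcaagtattggatg
NID1 (chr1:235975856-235975885, minus strand): ttgagtttacagcTGTAcaaatagtgtgga
LAMC1 (chr1:183145563-183145592, plus strand): taataaaatctgaatattTGTAacccttta
NID2 (chr14:52004844-52004873, minus strand): taaataccaaagaTGTAacaattttaaaat
TIMP3 (chr22:32862953-32862982, plus strand): atgtatattgtctTGTAatgttgcataatg
SPARC (chr5:151661115-151661144, minus strand): gataaaaacgtgcTGTAaaggaaataaagc
COL18A1 (chr21:45513646-45513675, plus strand): gtggggctggttcTGTAattgtgtgtgatg
ADAMTS18 (chr16:77282170-77282199, minus strand): gtcaaaatatatgTGTAatatttaattatt
MMP15 (chr16:58046849-58046878, plus strand): atacatttatttcTGTAaataatgtgcact
The capitals begin 78 and 43 bases before the annotated end of the searched transcript in NID1, and 12 bases before it in LAMC1. They begin 58 bases before it in NID2, 78 in TIMP3, 36 in SPARC, 62 in COL18A1, 59 in ADAMTS18 and 40 in MMP15. The ADAMTS18 gene is annotated beyond the end of its searched transcript, to chr16:77247813 on the minus strand. TIMP3 has a second TGTA, 90 bases before the end, that is in its printed line in lower case. MMP15 has a second TGTA, 15 bases before the end, that is not printed. The motif was in this window in 15 of the 32 tested matrix genes (46.9%) and in 6463 of 11920 tested protein-coding genes (54.2%). LAMA5, COL4A1, COL5A1, COL9A3, COL3A1, LAMB1 and COL4A6 also hold it and are not printed. MXRA8, COL5A2, COL1A1, THBS4, LOX, MMP14, AGRN, COL6A1, COL6A2, FBN2, HSPG2, LAMA1, LAMB2, LOXL2, MMP2, THBS1 and TIMP1 have no TGTA in it, which says only that these letters are not in this window. A match is a description of the annotated end, and which ends the cells used was not analysed here.

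Among the laminins, nidogens and proteoglycans, 4 of 9 rose and 2 fell with CFIm25 knockdown, and 4 rose and 3 fell in CFIm68 knockdown. In CFIm25 overexpression 1 rose and 4 fell, and in CFIm68 overexpression none rose and 2 fell. In the same order 66.7%, 77.8%, 55.6% and 22.2% of the 9 were called, beside 47.6%, 56.4%, 56.7% and 29.8% of all tested genes. The genes that rose in both knockdowns were LAMC1, NID1, NID2 and LAMA1. LAMC1, the gamma chain shared by most laminin trimers, stood at 669, 675 and 628 CPM in control, at 838 and 898 in CFIm25 knockdown, at 999, 1033 and 1039 in CFIm68 knockdown, at 561, 542 and 525 in CFIm25 overexpression, and at 668, 702 and 684 in CFIm68 overexpression. Both knockdown groups lay above every control library and the CFIm25 overexpression group below every one. Its log2 change was 0.40 ± 0.05 (SE; edgeR adjusted p = 3.4e-07) in CFIm25 knockdown, 0.64 ± 0.05 (3.2e-12) in CFIm68 knockdown and -0.28 ± 0.05 (1.2e-05) in CFIm25 overexpression. The CFIm68 overexpression value, 0.06 ± 0.05, did not pass.

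NID1, which links laminin to type IV collagen, moved in the knockdowns and not past the test in either overexpression. It stood at 552, 582 and 571 CPM in control, at 742 and 770 in CFIm25 knockdown, and at 859, 897 and 899 in CFIm68 knockdown, so neither knockdown overlapped control. The overexpression libraries lay at 535 to 586 CPM and overlapped it. The log2 changes were 0.41 ± 0.05 (edgeR adjusted p = 2.9e-07) and 0.64 ± 0.05 (4.3e-12). Its paralogue NID2 rose by 0.33 ± 0.06 (2.6e-05) in CFIm25 knockdown and by 0.41 ± 0.05 (1.4e-07) in CFIm68 knockdown, from 166 to 181 CPM in control to 215 and 216, and 224 to 228. NID2 fell by 0.30 ± 0.05 (8.0e-05) in CFIm68 overexpression, where its libraries were at 131 to 143 CPM. After subtraction of the median log2 change of the 50 neighbouring genes, the NID2 changes were 0.22 and 0.24 in the knockdowns and still passed. NID2 shares exon bases with RTRAF on the other strand, and the sources used here do not give the strand setting of the counting.

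The laminin alpha chains went opposite ways in the knockdowns. LAMA1, the alpha chain of early embryonic basement membranes, rose by 0.25 ± 0.06 (edgeR adjusted p = 0.0019) and by 0.21 ± 0.06 (0.0023) and fell by 0.26 ± 0.06 (4.0e-04) in CFIm25 overexpression. Without CFIm25 knockdown replicate 2 the first LAMA1 change was 0.20 with an adjusted p of 0.055. LAMA5, the alpha chain of most adult epithelial basement membranes, stood at 97.0, 110 and 103 CPM in control, at 74.7 and 81.3 in CFIm25 knockdown, at 86.3, 77.8 and 79.3 in CFIm68 knockdown, at 58.9, 72.3 and 69.0 in CFIm25 overexpression, and at 92.0, 98.9 and 131 in CFIm68 overexpression. The first 3 of these perturbed groups lay below all controls, and the last overlapped them. The log2 changes were -0.41 ± 0.10 (0.0013), -0.35 ± 0.09 (0.0013), -0.64 ± 0.09 (9.4e-07) and 0.05, the last not past the test. LAMA5 shares exon bases with ADRM1 on the other strand.

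LAMB1, a beta chain that shares exon bases with DLD on the other strand, ranged from 218 to 256 CPM over the 14 libraries and passed in no comparison. LAMB2, the beta chain of the kidney's filtration barrier, passed in CFIm25 overexpression (0.19 ± 0.07, edgeR adjusted p = 0.022) and in CFIm68 overexpression (-0.21 ± 0.07, 0.027), and neither call was stable. With the neighbouring genes' median removed the values were -0.04 (0.625) and -0.12 (0.275), and without CFIm68 overexpression replicate 1 the second was -0.10 (0.257). Without any 1 of control replicate 1, CFIm25 overexpression replicate 2 or CFIm25 overexpression replicate 3 the first had an adjusted p of 0.094, 0.121 or 0.053, and without control replicate 2 or 3 the second had 0.105 or 0.066.

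AGRN encodes agrin, a proteoglycan of the glomerular basement membrane and the neuromuscular junction. It stood at 35.3, 40.7 and 40.3 CPM in control, at 25 and 26.7 in CFIm25 knockdown, at 28.1, 27.1 and 26.9 in CFIm68 knockdown, at 15.7, 19.6 and 19.2 in CFIm25 overexpression, and at 36.9, 43.7 and 52.5 in CFIm68 overexpression. It was lower than every control library in all groups except the last. AGRN fell by 0.58 ± 0.10 (edgeR adjusted p = 3.9e-05), 0.50 ± 0.09 (3.5e-05) and 1.10 ± 0.10 (2.9e-10) on the log2 scale. Genes near it at the end of chromosome 1 (chr1:1020123-1056118) moved the same way: with the neighbours' median removed the 2 knockdown values were -0.23 (0.067) and -0.12 (0.263), no longer past the test, and the CFIm25 overexpression value was -0.83 (7.8e-08). HSPG2, which encodes perlecan, fell in CFIm68 knockdown alone among the comparisons with control, by 0.51 ± 0.09 (3.2e-05), from 99.1 to 128 CPM in control to 78.0 to 83.1. In CFIm25 knockdown its change was -0.17, and the direct difference between the knockdowns, -0.35 ± 0.10, had an adjusted p of 0.013 with edgeR and 0.085 with DESeq2. HSPG2 shares exon bases with LDLRAD2 on the other strand. Without CFIm25 knockdown replicate 2 that difference was -0.27 (0.169).

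**Figure D3:**
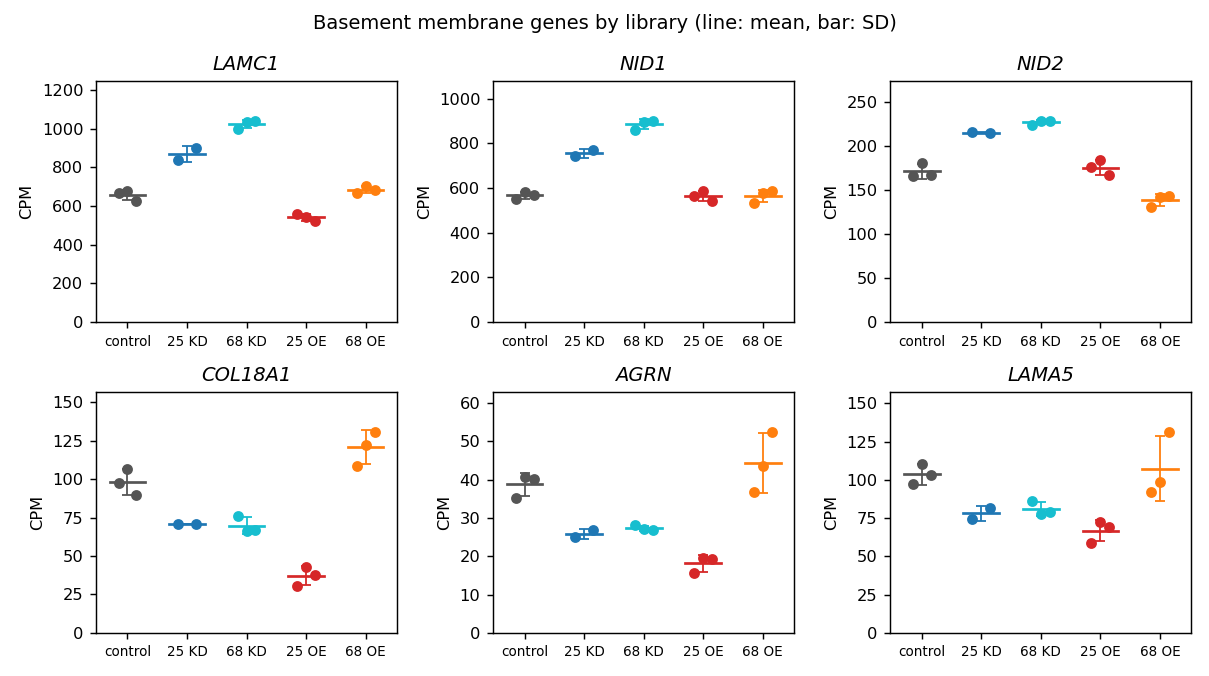
CPM of 6 basement membrane genes in each of the 14 libraries (points), with the group mean (line) and SD (bar); KD is knockdown and OE is overexpression. LAMC1, NID1 and NID2 are highest in the knockdown libraries, and COL18A1, AGRN and LAMA5 are lowest with CFIm25 overexpression.

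Of the basement membrane collagens, 1 of 3 tested rose and 1 fell in each knockdown, 2 fell in CFIm25 overexpression, and 2 rose in CFIm68 overexpression. The share called was 66.7% in each comparison. For CFIm25 knockdown, CFIm68 knockdown and then the overexpressions, 47.6%, 56.4%, 56.7% and 29.8% of all tested genes were called. COL18A1, the collagen whose end fragment is endostatin, stood at 97.5, 107 and 89.8 CPM in control, at 71.1 and 70.9 in CFIm25 knockdown, at 76.0, 66.2 and 67.0 in CFIm68 knockdown, at 30.7, 42.9 and 37.7 in CFIm25 overexpression, and at 109, 123 and 131 in CFIm68 overexpression. No perturbed group overlapped control, and only the last lay above it. COL18A1 fell 2.66-fold in CFIm25 overexpression (log2 change -1.41 ± 0.09, edgeR adjusted p = 1.6e-13), and by 0.47 ± 0.09 (1.5e-04) and 0.49 ± 0.08 (1.1e-05) in the knockdowns. It rose by 0.30 ± 0.08 (0.0060) in CFIm68 overexpression, a change of 0.24 with an adjusted p of 0.050 without control replicate 3. COL18A1 shares exon bases with SLC19A1 on the other strand.

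COL4A1, a chain of the type IV network, was 72.9 to 83.3 CPM in control and 48.1 to 58.6 CPM in CFIm25 overexpression, where it fell by 0.57 ± 0.07 (edgeR adjusted p = 6.6e-08). It was 93.7 to 107 CPM in CFIm68 overexpression, a log2 change of 0.37 ± 0.07 (1.1e-04) that was 0.17 (0.069) with the neighbours' median removed. Both knockdown groups lay above control, at 89.7 and 90.2 CPM and at 86.3 to 91.1 CPM, with small changes of 0.18 ± 0.07 (0.042) and 0.15 ± 0.07 (0.047). Both small changes missed the threshold with the neighbours' median removed, at 0.16 (0.086) and 0.12 (0.131). Leaving out control replicate 3 or either CFIm25 knockdown library ended the first call, with adjusted p of 0.192, 0.122 and 0.150. Leaving out control replicate 1 or 3 or any CFIm68 knockdown library ended the second, with values of 0.10 to 0.18. COL4A6 ranged from 1.68 to 3.06 CPM and passed in no comparison.

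COL6A1 and COL6A2, whose chains assemble into the beaded filaments of type VI collagen, lie beside each other on chromosome 21 and fell together. COL6A1 stood at 32.0, 40.0 and 35.2 CPM in control, at 27.8 and 29.2 in CFIm25 knockdown, at 28.3, 28.8 and 28.9 in CFIm68 knockdown, at 20.8, 23.2 and 23.5 in CFIm25 overexpression, and at 33.3, 36.1 and 42.1 in CFIm68 overexpression. COL6A2 stood at 46.2, 52.6 and 43.4 CPM in control, at 33.8 and 32.2 in CFIm25 knockdown, at 30.9, 28.7 and 28.0 in CFIm68 knockdown, at 24.9, 31.3 and 30.9 in CFIm25 overexpression, and at 53.2, 63.7 and 64.0 in CFIm68 overexpression. The knockdown and CFIm25 overexpression libraries of both genes lay below every control library, while CFIm68 overexpression overlapped control for COL6A1 and lay above it for COL6A2.

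The COL6A1 log2 changes were -0.32 ± 0.09 (edgeR adjusted p = 0.0042), -0.32 ± 0.08 (0.0015) and -0.67 ± 0.09 (1.5e-07) in CFIm25 knockdown, CFIm68 knockdown and CFIm25 overexpression. Those of COL6A2 were -0.53 ± 0.09 (4.2e-05), -0.70 ± 0.08 (6.3e-08) and -0.71 ± 0.09 (7.4e-08), and 0.35 ± 0.08 (0.0020) in CFIm68 overexpression. With the neighbours' median removed, the CFIm25 overexpression values were -0.36 for COL6A1 and -0.41 for COL6A2, and the COL6A1 value in CFIm25 knockdown was -0.49; all 3 still passed. COL18A1, COL6A1 and COL6A2 lie within the same stretch of chromosome 21 (chr21:45405137-45513720, chr21:45981737-46005050 and chr21:46098097-46132849, all on the plus strand), among partly the same neighbours. COL9A3, a chain of the cartilage collagen type IX, was near the detection limit at 0.942 to 1.15 CPM in control and 1.84 to 2.66 CPM in CFIm68 overexpression, where it rose by 1.12 ± 0.25 (0.0010). COL9A3 was above 1 CPM in 5 of 14 libraries and shares exon bases with TCFL5 on the other strand.

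Of the 4 tested fibrillar collagens, 1 rose and 1 fell in CFIm25 knockdown, 2 rose in CFIm68 knockdown, none passed in CFIm25 overexpression, and 2 fell in CFIm68 overexpression. In the same order 50%, 50%, 0% and 50% were called, beside 47.6%, 56.4%, 56.7% and 29.8% of all tested genes. COL5A2, the second chain of the type V collagen that nucleates fibrils, stood at 49.7, 49.0 and 47.6 CPM in control, at 45.1 and 43.6 in CFIm25 knockdown, at 47.3, 48.3 and 48.9 in CFIm68 knockdown, at 52.1, 49.8 and 48.8 in CFIm25 overexpression, and at 12.8, 15.8 and 13.6 in CFIm68 overexpression. Only the last group was far from control, 3.46-fold lower, with a log2 change of -1.79 ± 0.07 (edgeR adjusted p = 1.9e-17). The other COL5A2 changes ran from -0.14 to 0.04 and did not pass. Against CFIm25 overexpression the difference was -1.83 ± 0.07 (2.4e-18).

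COL1A1, the main chain of type I collagen, stood at 47.5, 51.8 and 48.5 CPM in control, at 49.8 and 54.9 in CFIm25 knockdown, at 62.4, 64.1 and 64.4 in CFIm68 knockdown, at 45.9, 52.9 and 53.4 in CFIm25 overexpression, and at 24.8, 28.2 and 27.3 in CFIm68 overexpression. It fell by 0.88 ± 0.07 (edgeR adjusted p = 2.7e-10) in CFIm68 overexpression and rose by 0.37 ± 0.07 (2.3e-05) in CFIm68 knockdown, the 2 groups that did not overlap control. With the neighbours' median removed the COL1A1 rise was 0.18 (0.022). COL5A1, the partner chain of COL5A2, did not share its fall: it was 16 to 22.3 CPM in CFIm68 overexpression and 18.6 to 21.4 CPM in control. COL5A1 passed only in CFIm25 knockdown, at 14.8 and 14.9 CPM, with a log2 change of -0.45 ± 0.11 (0.0019) that was -0.29 (0.039) with the neighbours' median removed. COL3A1 was under 1 CPM on average. Its reads numbered 0, 4 and 3 in control, 17 and 25 with CFIm25 knockdown, 23, 22 and 34 with CFIm68 knockdown, 10, 3 and 5 in CFIm25 overexpression, and 3, 1 and 1 in CFIm68 overexpression. The fitted log2 changes of COL3A1 in the knockdowns, 2.49 ± 0.56 (5.7e-04) and 2.91 ± 0.50 (1.4e-05), rest on these few reads. FBN2, a fibrillin of elastic fibres that shares exon bases with SLC27A6 on the other strand, passed in CFIm25 knockdown (-0.33 ± 0.11, 0.013) and CFIm25 overexpression (-0.24 ± 0.10, 0.039), where its libraries overlapped control. Without control replicate 1, the highest FBN2 library at 38.5 CPM, the values were -0.19 (0.150) and -0.10 (0.422). The CFIm25 overexpression call of FBN2 was also lost with limma-voom (adjusted p = 0.069) and, with edgeR, in the compared groups alone (0.070). It was lost too without control replicate 2 (0.106) or CFIm25 overexpression replicate 2 (0.134) or 3 (0.080). Without CFIm25 knockdown replicate 1 the first FBN2 value was -0.28 (0.108), and without control replicate 3, the lowest at 25.1 CPM, the second was -0.39.

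All 4 matricellular and adhesion genes passed in CFIm25 overexpression, 2 higher and 2 lower, and 3 of 4 rose in CFIm68 overexpression. That is 100% and 75% called in a list of 4, beside 56.7% and 29.8% of all tested genes. SPARC, a collagen-binding glycoprotein, stood at 210, 231 and 223 CPM in control, at 201 and 205 in CFIm25 knockdown, at 244, 258 and 253 in CFIm68 knockdown, at 74.9, 77.1 and 68.4 in CFIm25 overexpression, and at 274, 276 and 282 in CFIm68 overexpression. The CFIm25 overexpression libraries lay far below all others, and no perturbed group overlapped control. SPARC fell 3.01-fold there (log2 change -1.59 ± 0.05, edgeR adjusted p = 1.4e-19) and rose by 0.32 ± 0.05 (1.9e-05) in CFIm68 overexpression. It rose by 0.18 ± 0.05 (0.0030) in CFIm68 knockdown, a value of 0.12 (0.049) with the neighbours' median removed, and its change of -0.12 ± 0.06 in CFIm25 knockdown did not pass (0.073). The overexpression groups differed 3.77-fold for SPARC (6.1e-22).

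MXRA8, a cell-surface adhesion protein known as an entry receptor for arthritogenic alphaviruses, stood at 5.56, 7.26 and 5.99 CPM in control, at 2.90 and 3.38 in CFIm25 knockdown, at 3.31, 3.46 and 3.68 in CFIm68 knockdown, at 2.53, 1.92 and 3.01 in CFIm25 overexpression, and at 17.5, 22.5 and 23.6 in CFIm68 overexpression. It was below every control library in the first 3 perturbed groups and above in the last. MXRA8 rose 3.38-fold with CFIm68 overexpression (a log2 change of 1.76 ± 0.13, edgeR adjusted p = 1.0e-11) and fell by 0.98 ± 0.17 (3.1e-05), 0.85 ± 0.15 (2.5e-05) and 1.33 ± 0.17 (1.8e-07) in CFIm25 knockdown, CFIm68 knockdown and CFIm25 overexpression. The difference between the overexpression groups, 8.52-fold (1.2e-16), was the largest log2 difference of any tested matrix gene in the 6 comparisons. MXRA8 lies near AGRN on chromosome 1 (chr1:1352689-1361777), and with the neighbours' median removed its knockdown values were -0.63 (0.0037) and -0.47 (0.010), still past the test.

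THBS4, a thrombospondin of tendon and muscle matrix, rose in all 4 comparisons. It stood at 47.4, 55.0 and 52.6 CPM in control, at 68.8 and 66.2 in CFIm25 knockdown, at 64.3, 63.5 and 63.2 in CFIm68 knockdown, at 60.8, 63.5 and 64.3 in CFIm25 overexpression, and at 131, 147 and 151 in CFIm68 overexpression. Every perturbed library lay above every control library. The change was 2.77-fold in CFIm68 overexpression (log2 1.47 ± 0.06, edgeR adjusted p = 3.4e-17), and 0.38 ± 0.07 (4.5e-05), 0.30 ± 0.06 (1.8e-04) and 0.28 ± 0.06 (4.6e-04) in CFIm25 knockdown, CFIm68 knockdown and CFIm25 overexpression. Its relative THBS1, which can activate latent TGF-beta, differed: at 10.5 to 11.4 CPM it rose by 0.42 ± 0.12 (0.0047) in CFIm25 overexpression, against 7.82 to 8.56 CPM in control. THBS1 shares exon bases with FSIP1 on the other strand. THBS1 passed as lower in CFIm25 knockdown (-0.38 ± 0.14, 0.030), but those libraries were at 4.81 and 7.51 CPM. Without the first of them the THBS1 value was -0.13 (0.518) and without the second it was -0.77, and without control replicate 1 or 2 the adjusted p was 0.081 or 0.063.

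The crosslinking enzymes did not pass in either knockdown. LOX, which crosslinks fibrillar collagen and elastin, stood at 36.6, 50.5 and 30 CPM in control, at 46.3 and 35.8 in CFIm25 knockdown, at 34.4, 32.4 and 30.5 in CFIm68 knockdown, at 76.6, 85.4 and 64.8 in CFIm25 overexpression, and at 20.2, 25 and 21.7 in CFIm68 overexpression. The overexpression groups lay on opposite sides of control with no overlap, despite the wide spread of the controls. LOX rose by 0.95 ± 0.12 (edgeR adjusted p = 1.1e-07) with CFIm25 and fell by 0.80 ± 0.13 (4.0e-05) with CFIm68, and the direct difference between them was 3.38-fold (1.8e-12). LOX shares exon bases with SRFBP1 on the other strand. LOXL2, a lysyl oxidase that acts on type IV collagen, was 8.52 to 12.0 CPM in CFIm25 overexpression and 13 to 16.8 CPM in control, a fall of 0.57 ± 0.12 (1.8e-04). LOXL2 shares exon bases with ENTPD4 on the same strand, so its reads are uncertain. Same-strand exon overlaps with genes absent from the count table were also annotated for AGRN (AL645608.5), MMP2 (AC007336.3), LAMA5 (MIR4758) and COL3A1 (MIR3606).

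Of the 4 matrix proteases, 1 fell in CFIm25 knockdown, 1 rose and 2 fell in CFIm68 knockdown, 1 fell in CFIm25 overexpression and 3 rose in CFIm68 overexpression. In the same order 25%, 75%, 25% and 75% were called, beside 47.6%, 56.4%, 56.7% and 29.8% of all tested genes. ADAMTS18, a secreted protease of the thrombospondin-repeat family, stood at 11.2, 12.9 and 10.5 CPM in control, at 12.4 and 10.3 in CFIm25 knockdown, at 6.88, 6.5 and 7.20 in CFIm68 knockdown, at 14.1, 11.8 and 14.8 in CFIm25 overexpression, and at 29, 30.2 and 29.1 in CFIm68 overexpression. The CFIm68 groups lay on opposite sides of control and the CFIm25 groups overlapped it. It fell by 0.75 ± 0.11 (edgeR adjusted p = 1.1e-06) in CFIm68 knockdown and rose 2.55-fold (log2 1.35 ± 0.10, 9.1e-12) in CFIm68 overexpression. Its CFIm25 values were -0.04 and 0.23, neither past the test, and the direct differences between the 2 knockdowns (-0.71 ± 0.11, 2.7e-05) and between the 2 overexpressions (1.12 ± 0.09, 2.6e-11) both passed.

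MMP2, the gelatinase that cuts type IV collagen, also separated the knockdowns. It stood at 9.07, 10.2 and 12.8 CPM in control, at 10.2 and 10.2 in CFIm25 knockdown, at 17.4, 16 and 16 in CFIm68 knockdown, at 11.1, 12.0 and 11.6 in CFIm25 overexpression, and at 9.81, 9.19 and 11.1 in CFIm68 overexpression. Only CFIm68 knockdown lay clear of control, with a rise of 0.63 ± 0.10 (edgeR adjusted p = 5.5e-06), and the direct difference from CFIm25 knockdown was 0.70 ± 0.11 (1.8e-05). MMP14, the membrane-bound enzyme that activates pro-MMP2, fell in both knockdowns. From 4.31 to 5.32 CPM in control it fell to 2.04 and 1.62 in CFIm25 knockdown (-1.40 ± 0.19, 6.2e-07) and to 1.77 to 2.14 in CFIm68 knockdown (-1.26 ± 0.16, 2.3e-07). In CFIm68 overexpression MMP14 rose by 0.49 ± 0.14 (0.011), a call that was lost without control replicate 1 (0.43, 0.056) or CFIm68 overexpression replicate 3 (0.38, 0.082).

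MMP15, another membrane-bound metalloproteinase, stood at 49.6, 55.3 and 52.4 CPM in control, at 49.2 and 46.7 in CFIm25 knockdown, at 50.2, 50.2 and 48.4 in CFIm68 knockdown, at 24.0, 32.0 and 24.9 in CFIm25 overexpression, and at 56.5, 62.7 and 66.2 in CFIm68 overexpression. The CFIm25 overexpression libraries lay well below all others. MMP15 fell by 0.97 ± 0.08 there (edgeR adjusted p = 1.0e-10). Its rise in CFIm68 overexpression, 0.24 ± 0.08 (0.021), was 0.14 (0.225) with the neighbours' median removed and was also lost without control replicate 1 (0.100) or 3 (0.051), or without CFIm68 overexpression replicate 2 (0.071) or 3 (0.107).

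TIMP3, the inhibitor that stays bound to the matrix, rose in both knockdowns. It stood at 15, 13.9 and 13.7 CPM in control, at 22.2 and 22.3 in CFIm25 knockdown, at 26.0, 29.7 and 29.8 in CFIm68 knockdown, at 13.1, 15.7 and 13.4 in CFIm25 overexpression, and at 13.6, 16.8 and 13.7 in CFIm68 overexpression. The knockdown libraries lay above all controls and the overexpression libraries overlapped them. The TIMP3 changes were 0.65 ± 0.10 (edgeR adjusted p = 4.5e-06) and 1.00 ± 0.09 (1.5e-10). TIMP1, a soluble inhibitor of most metalloproteinases, stood at 37.1, 39.5 and 44.1 CPM in control, at 39.7 and 39.7 in CFIm25 knockdown, at 47.0, 46.3 and 47.7 in CFIm68 knockdown, at 26.4, 27.9 and 26.1 in CFIm25 overexpression, and at 36.3, 39.9 and 37.4 in CFIm68 overexpression. CFIm68 knockdown lay above control and CFIm25 overexpression below it. TIMP1 fell by 0.59 ± 0.07 (4.1e-08) in CFIm25 overexpression and rose by 0.22 ± 0.06 (0.0046) in CFIm68 knockdown.

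**Figure D4:**
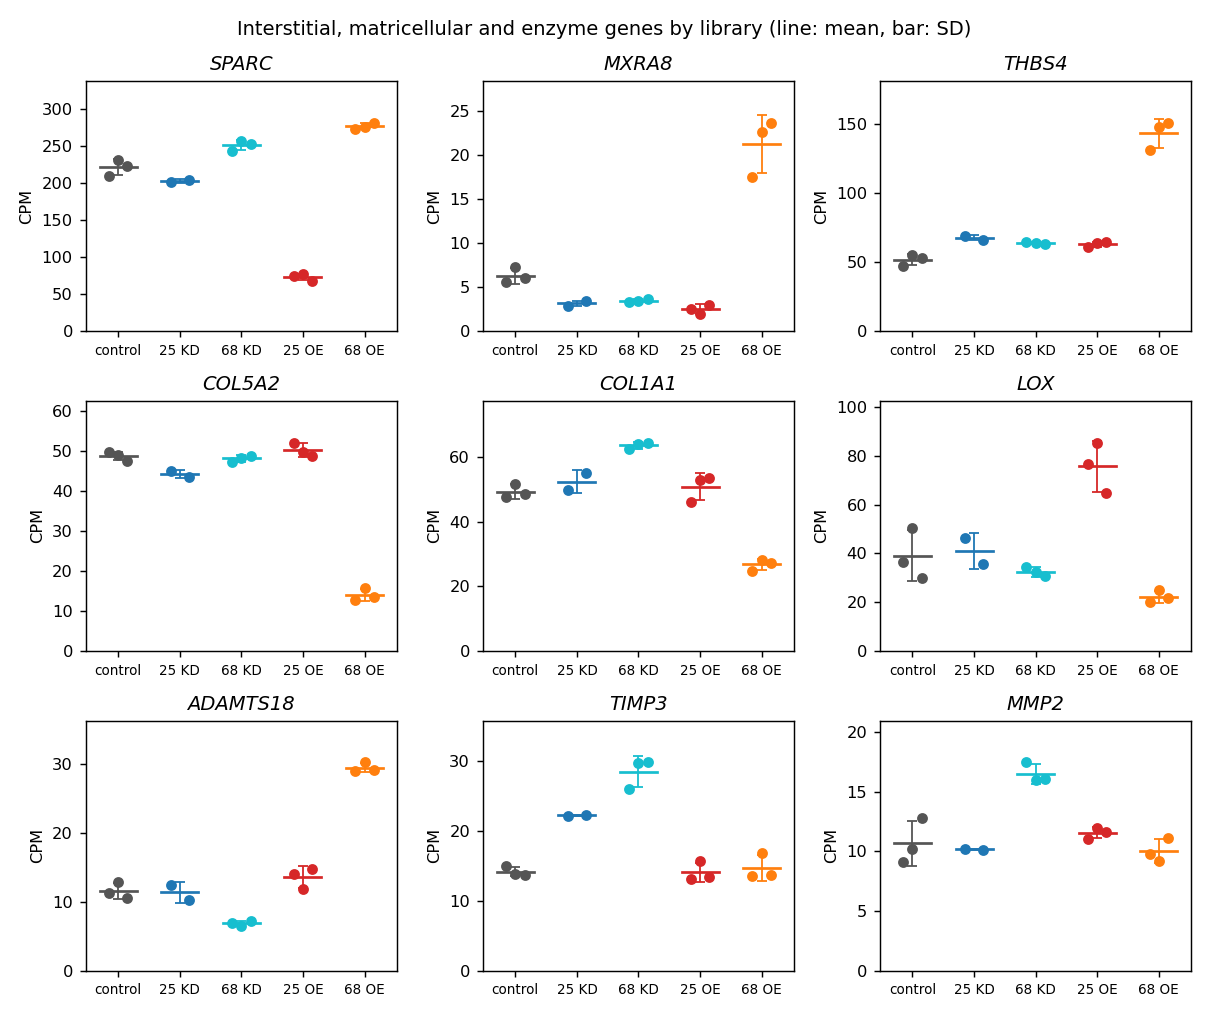
CPM of 9 collagen, matricellular, enzyme and inhibitor genes in each of the 14 libraries (points), with the group mean (line) and SD (bar); KD is knockdown and OE is overexpression. COL5A2 and COL1A1 are lowest and MXRA8, THBS4 and ADAMTS18 highest with CFIm68 overexpression, SPARC is lowest with CFIm25 overexpression, and TIMP3 is highest in the knockdowns.

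The direct comparisons set CFIm68 knockdown against CFIm25 knockdown and CFIm68 overexpression against CFIm25 overexpression. They called 31.2% and 75% of the 32 tested matrix genes, beside 24.2% and 63.7% of all tested genes. The targeted genes were not changed by equal amounts in the compared groups. Against CFIm25 knockdown, CFIm68 knockdown was higher for COL1A1, COL5A1, LAMC1, NID1, SPARC, MMP2, TIMP1 and TIMP3 and lower for ADAMTS18 and HSPG2. Apart from MMP2 and ADAMTS18 these differences were at most 0.46 in log2 size. LAMC1 differed by 0.24 ± 0.05 (edgeR adjusted p = 0.0011), NID1 by 0.23 ± 0.05 (0.0019), TIMP1 by 0.24 ± 0.07 (0.012) and COL1A1 by 0.28 ± 0.07 (0.0048). Without CFIm25 knockdown replicate 1 these had adjusted p of 0.060, 0.052, 0.082 and 0.130, and 4 genes in place of 8 were higher. Without CFIm25 knockdown replicate 2 the TIMP1 value was 0.078. TIMP3 differed by 0.35 ± 0.09 (0.0043). With the neighbours' median removed the TIMP3 and COL1A1 differences were 0.19 (0.123) and 0.17 (0.078), and the LAMC1 difference was 0.14 (0.045).

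Between the overexpression groups, differences of at least 2-fold were found for MXRA8, SPARC, COL18A1, COL9A3, AGRN (1.3 ± 0.10), MMP15 (1.2 ± 0.08), THBS4 (1.19 ± 0.06), ADAMTS18 and COL6A2 (1.06 ± 0.09), which were higher with CFIm68, and for COL5A2 and LOX, which were lower. With the neighbours' median removed, AGRN (0.88), MMP15 (0.92), ADAMTS18 (0.82) and COL6A2 (0.88) still passed but were under 2-fold. The other genes named here stayed at least 2-fold apart. For COL18A1 the main difference was 3.28-fold (edgeR adjusted p = 9.2e-16). SPARC, COL18A1, MXRA8, COL4A1, COL6A2, MMP15, LOX and LAMB2 each passed against control in opposite directions in the 2 overexpression groups. With the neighbours' median removed LAMB2 passed in neither group, and COL4A1 and MMP15 did not pass in CFIm68 overexpression. Matching shares of all tested genes were not computed for this list or for the 2-fold list. NID1, LAMB1, TIMP3 and MMP2 did not differ past the test between the overexpression groups, with log2 differences of 0.00 ± 0.05, -0.03 ± 0.05, 0.07 and -0.20 ± 0.11. The smallest passing differences were those of HSPG2 (0.30 ± 0.09, 0.0071), MMP14 (0.33 ± 0.14, 0.043) and LAMA1 (0.25 ± 0.06, 3.5e-04). HSPG2 was lost with DESeq2 (0.064) and without CFIm68 overexpression replicate 2 (0.055) or 3 (0.075). MMP14 was lost with DESeq2 (0.103) and without CFIm25 overexpression replicate 1 (0.223) or 2 (0.058) or CFIm68 overexpression replicate 2 (0.090) or 3 (a difference of 0.22, 0.235). LAMB2 (-0.40 ± 0.07) was -0.07 (0.399) with the neighbours' median removed.

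**Figure D5:**
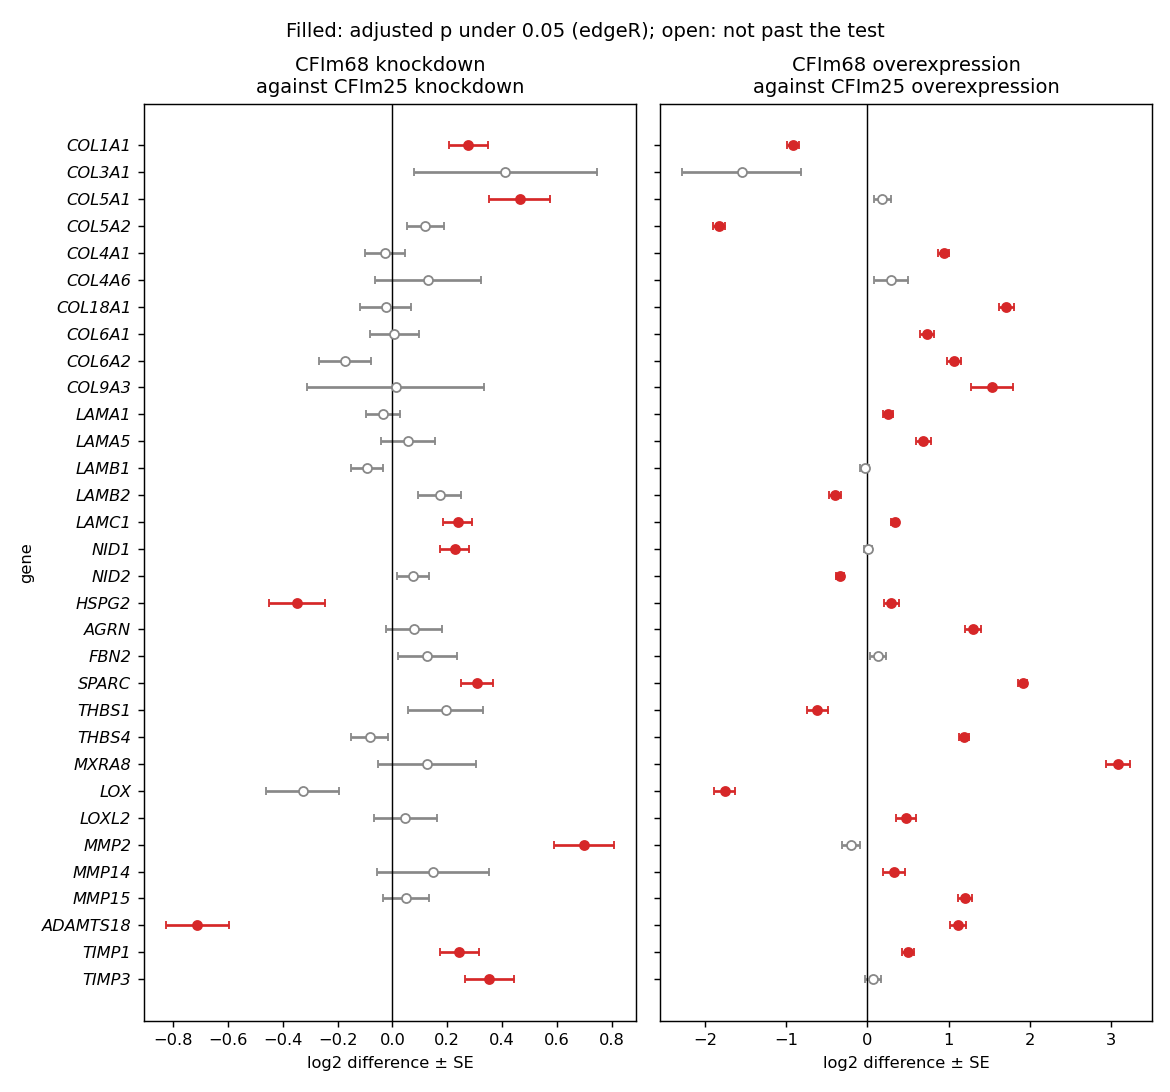
Log2 difference ± SE of each tested matrix gene between the CFIm68 and CFIm25 knockdowns (left) and between the CFIm68 and CFIm25 overexpressions (right), on different horizontal scales; filled points passed an edgeR adjusted p of 0.05. On the left MMP2 (0.70) and ADAMTS18 (-0.71) stand out, and on the right the points run from COL5A2 (-1.83) to MXRA8 (3.09).

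Other genes of the pathway are given beside the share of all tested genes called, 47.6% in CFIm25 knockdown, 56.4% in CFIm68 knockdown, 56.7% in CFIm25 overexpression and 29.8% in CFIm68 overexpression. Of 23 tested genes for collagen modification and secretion, 4 rose and 4 fell with CFIm25 knockdown, 9 and 4 with CFIm68 knockdown, 9 and 6 in CFIm25 overexpression, and 7 and 4 in CFIm68 overexpression. The shares called were 34.8%, 56.5%, 65.2% and 47.8%. SERPINH1, the collagen chaperone HSP47, stood at 35.8 to 41.7 CPM in control and fell by 0.76 ± 0.10 (edgeR adjusted p = 5.2e-07), 0.47 ± 0.09 (5.2e-05) and 0.52 ± 0.09 (1.8e-05) in CFIm25 knockdown, CFIm68 knockdown and CFIm25 overexpression. In CFIm68 overexpression SERPINH1 rose by 0.66 ± 0.09 (1.2e-06), to 55.7 to 63.1 CPM.

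Of 23 tested matrix receptors, 6 rose and 4 fell with CFIm25 knockdown, 7 and 5 with CFIm68 knockdown, 5 and 7 in CFIm25 overexpression, and 4 and 2 in CFIm68 overexpression. That is 43.5%, 52.2%, 52.2% and 26.1% called, each below the share of all tested genes. SDC4, a heparan sulphate co-receptor of focal adhesions, moved in opposite directions in the knockdowns: from 56.3 to 60.8 CPM in control it rose to 82.9 and 83.1 in CFIm25 knockdown (0.49 ± 0.06, edgeR adjusted p = 2.2e-07) and fell to 39.7 to 42.3 in CFIm68 knockdown (-0.53 ± 0.06, 8.1e-09). The direct SDC4 difference was -1.03 ± 0.06 (3.3e-13). Its relative SDC2 rose in both, by 0.27 ± 0.06 (9.5e-04) and 0.55 ± 0.06 (2.5e-09), as did CD47, a thrombospondin receptor, by 0.47 ± 0.08 (4.6e-05) and 0.66 ± 0.08 (2.7e-08).

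Of 48 other tested matrix proteins, 6 rose and 19 fell with CFIm25 knockdown, 13 and 19 with CFIm68 knockdown, 12 and 17 in CFIm25 overexpression, and 16 and 5 in CFIm68 overexpression. The shares were 52.1%, 66.7%, 60.4% and 43.8%. COL7A1, the anchoring fibril collagen, stood at 41.8 to 53.0 CPM in control and fell by 1.85 ± 0.12 (edgeR adjusted p = 1.1e-12) to 13.7 and 12.2 CPM with CFIm25 knockdown and by 1.70 ± 0.10 (5.9e-14) to 14 to 14.5 CPM in CFIm68 knockdown. COL27A1, a fibrillar collagen of cartilage, fell by 1.22 ± 0.15 (1.0e-07) and 1.49 ± 0.13 (2.2e-10). Of 30 other tested proteases and inhibitors, 5 rose and 6 fell with CFIm25 knockdown, 11 and 9 with CFIm68 knockdown, 6 and 10 in CFIm25 overexpression, and 9 and 2 in CFIm68 overexpression. Here 36.7%, 66.7%, 53.3% and 36.7% were called. HPSE, which cuts heparan sulphate, rose from 9.78 to 10.5 CPM in control to 14 and 14.9 in CFIm25 knockdown (0.51 ± 0.09, 6.2e-05) and 19.2 to 19.5 in CFIm68 knockdown (0.94 ± 0.08, 2.0e-10). ADAMTS1, a protease that cuts versican and aggrecan, rose by 0.78 ± 0.07 (1.0e-09) with CFIm25 knockdown and 0.32 ± 0.07 (1.5e-04) with CFIm68 knockdown and fell by 0.64 ± 0.07 (3.6e-09) and 1.58 ± 0.07 (5.3e-17) in CFIm25 and CFIm68 overexpression.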

How the data were processed

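Gene-level RNA-seq reads of 14 HEK 293 libraries were analysed, grouped by their labels. The authors deposited unnormalised counts of reads for each gene, from TruSeq Stranded mRNA libraries per the labels' protocols. The submitters' processing notes name cutadapt 1.16, STAR 2.7.1a and hg38. The sources used here do not name the counting tool or its strand setting. Counts were scaled by TMM (factors 0.973 to 1.05), filtered with filterByExpr and fitted in R 4.3.3 with edgeR 4.0.16's quasi-likelihood test over all 14 libraries, with Benjamini-Hochberg adjustment over 12080 genes and a threshold of 0.05. On simulated counts with 200 genes changed per perturbed group, the test recovered 78% to 86% of 1.5-fold and 88% to 94% of 2-fold changes. It called 7 to 12 unchanged genes per comparison with control. Far more genes were called in these data, so the simulation does not check the scaling at that extent. Exon lengths, coordinates and sequences are from GENCODE 29.

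The members and lists were chosen with earlier results of these data known. Matrix genes past the threshold against control with a log2 change of at least 0.58 and a mean of at least 5 CPM were described by library, and the rest by level and range. Other lists name at most 3 genes each, those with the smallest adjusted p in either knockdown. Alternatives were median-ratio scaling, other filters, DESeq2 1.42.0, limma-voom (limma 3.58.1), compared groups alone, a replicate block, removal of the median change of 50 neighbouring genes, and leaving out each library.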

Additional observations from a re-analysis of the deposited data

How the results depend on the processing

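The 106 called changes of matrix genes in the 6 comparisons were recomputed under each alternative, and 83 passed in the same direction under all of them. Across 1454 such values 1389 passed in the same direction, 64 no longer passed and 1 reversed. The reversal was LAMB2 in CFIm25 overexpression, at -0.044 (edgeR adjusted p = 0.625) with the neighbouring genes' median removed; 10 other calls were lost under that setting, and the cause was not tested. The labels do not say that replicate numbers mark a shared batch. Deviations of same-numbered libraries from their group means correlated at -0.078 to 0.3 across genes, and those of different-numbered libraries at -0.324 to 0.156. For replicate 1 the same-numbered values were -0.052 to 0.3 and the different-numbered ones -0.324 to 0.078. The numbers were not treated as pairs because the labels name no batch, and whether they mark one was not tested. With the replicate number as a block all 106 calls passed in the same direction, and calls over all genes rose in every comparison (for CFIm68 overexpression, from 1746 higher and 1859 lower to 1996 and 2068). The count of genes lower in CFIm68 than in CFIm25 knockdown was 2, and it was 1 with DESeq2 and 4 with the compared groups alone. The count higher in that comparison was 8, and 4 to 8 with 1 library left out. DESeq2 lost 4 of the 106 calls, median-ratio scaling 2, a filter of 1 CPM in at least 3 libraries 2 of 104, the compared groups alone 2, limma-voom 1 and no filter 0. Of the genes with a mean above 1 CPM, 30 of 31 were above it in every library. With 2 libraries, CFIm25 knockdown left 1 sample when either was left out, whose spread was then taken from the other groups.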
